A study of Mus musculus with 12 samples.

Results

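MAVS is the mitochondrial adaptor through which the RIG-I-like receptors report foreign or misplaced RNA in the cytosol. The receptors RIG-I (gene Ddx58) and MDA5 (gene Ifih1) bind double-stranded RNA, join MAVS through their CARD domains and set off kinases that switch on type I interferon genes and NF-kB. LGP2 (gene Dhx58) has the same kind of helicase without CARD domains and tunes both receptors. The ubiquitin ligases TRIM25 and RNF135 (Riplet) are described as activators of RIG-I, and TRAF3 and TRAF6 are ubiquitin ligases that couple MAVS to the kinases. Many of these genes are themselves raised by interferon, so their transcripts rise in tissues that respond to it. The 8 genes Mavs, Ddx58, Ifih1, Dhx58, Trim25, Rnf135, Traf3 and Traf6 were taken by gene symbol from a table of 45777 genes, each symbol matching 1 row. All 8 passed the filter on low counts, as did 17885 genes in all.

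The samples were 12 libraries from subcutaneous tumours of the mouse lung cancer line 393P in male 129S2/SvPasCrl mice that were 8 weeks old at injection. Reconstituted tumours came from cells labelled MAVS reconstituted and knockout tumours from cells labelled MAVS knockout, whose sample titles read Luc, a term not explained in the sources used here. Tumours of each genotype received the MPS1 inhibitor BAY-1217389 at 5 mg/kg, 2 times a day for 2 days, with harvest on the next day, or the control treatment, called Veh in the titles. The 4 groups of 3 libraries were thus reconstituted with inhibitor, reconstituted control, knockout with inhibitor and knockout control. MPS1 is the spindle checkpoint kinase, and its inhibition makes chromosomes missegregate. The comparison asks which transcript changes after short MPS1 inhibition need MAVS in the tumour cells. The genotype belongs to the injected cell population, so a MAVS effect cannot be told apart from any other difference between the populations. Host cells in a tumour carry their own copies of these 8 genes, whose reads enter the same counts. The labels call the samples replicates without saying that each came from its own animal. The p-values here therefore describe only the spread among these libraries, which may differ from the spread among animals.

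Libraries held 52983715 to 69108411 counts, and levels are given in CPM (each count divided by its library total in units of 1e6 counts, after TMM scaling). Of 8 epithelial markers 7 were read in every library and Cldn7 was at 0 in all 12, with summed levels of 6397 to 10130 CPM. Leukocyte markers (6 of 6 read in every library) summed to 870.4 to 1263 CPM, so the pieces held host cells too. On the first principal component, reconstituted inhibitor replicate 1 and reconstituted control replicate 2 lay at opposite ends. A gene was called at a Benjamini-Hochberg adjusted p below 0.05 over all 17885 genes in edgeR's quasi-likelihood test, and differences are on the log2 scale with the standard error of the fit (SE).

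The adaptor gene Mavs (gene ID 228607, chromosome 2, 131234063 to 131248025, plus strand, GRCm38) was higher in reconstituted than in knockout tumours and was read in all 12 libraries. It had 50.1, 53.8 and 62.8 CPM in reconstituted tumours with inhibitor, against 43.5, 39.4 and 41.0 CPM in knockout tumours with inhibitor. In controls it had 85.1, 68.9 and 59.1 CPM in reconstituted tumours, against 40.5, 42.5 and 45.7 CPM in knockout tumours. The genotypes did not overlap, yet the 6 knockout libraries held 39.4 to 45.7 CPM rather than values near 0. Counts per gene do not separate an edited Mavs gene, an introduced copy and Mavs of host cells, and do not show whether a transcript encodes protein. Averaged over treatments the log2 difference was 0.58 ± 0.09 (SE, 95% interval 0.38 to 0.78, adjusted p = 0.0105).

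Across the whole set, 5 of 8 genes were called higher in reconstituted tumours averaged over treatments, namely Mavs, Ddx58, Ifih1, Dhx58 and Trim25, and 0 were called lower. Mavs is the gene altered between the genotypes, so its place in this and later counts belongs to the design. Among all genes tested 1.09% were called higher in the same comparison and 0.47% lower. The median log2 difference of the 8 genes was 0.60, against 3e-04 over all genes. Rnf135, Traf3 and Traf6 were not called. For Mavs, Ddx58, Ifih1 and Trim25 all 6 reconstituted libraries lay above all 6 knockout libraries, a pattern that 1.33% of all genes showed. At an unadjusted p under 0.05 there were 6 of 8 genes, Rnf135 being the sixth, against 15.1% of all genes.

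**Figure D1:**
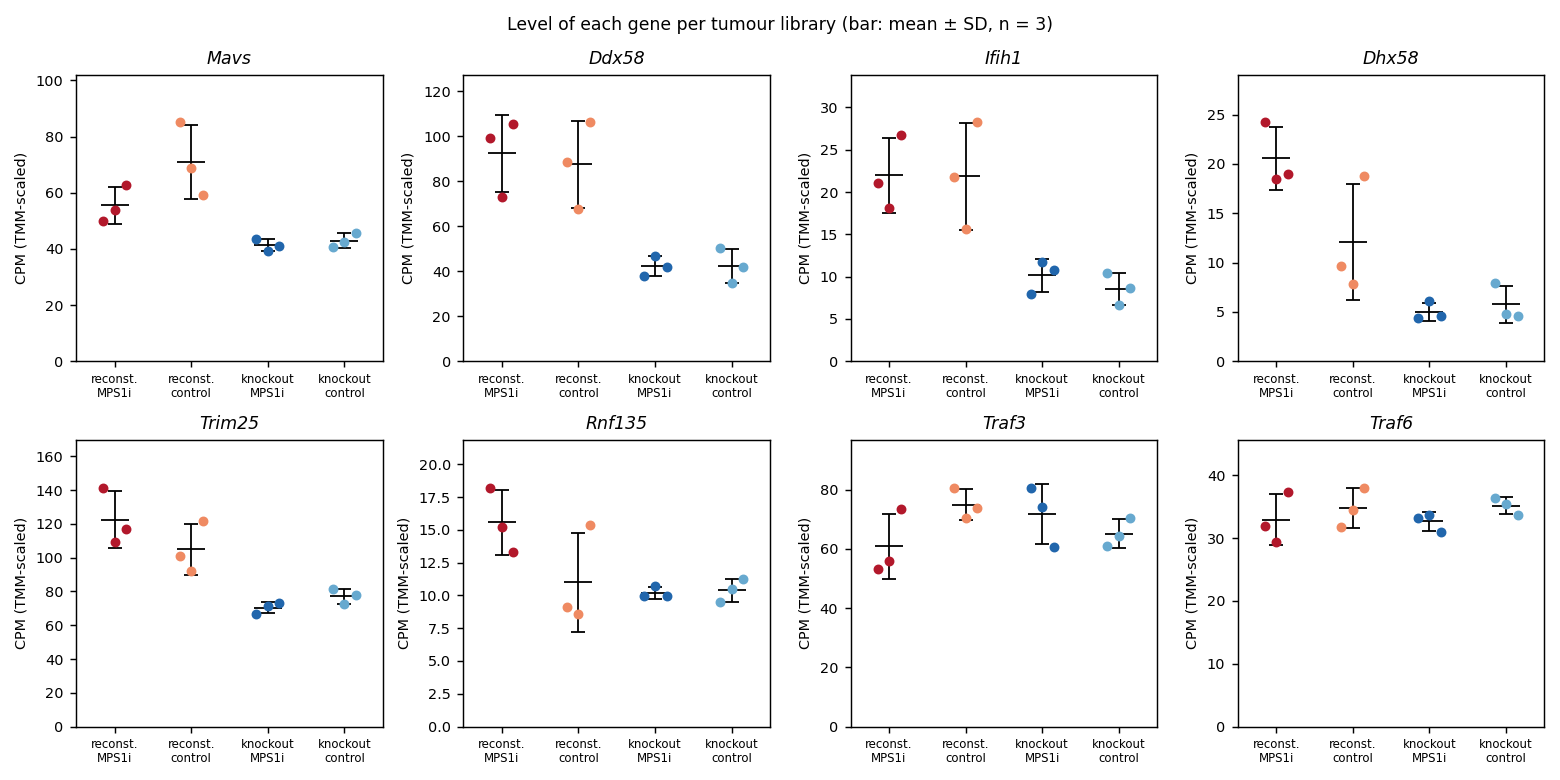
Level of each of the 8 genes in CPM (vertical axes, from 0) in the 4 tumour groups (horizontal axes), with 1 point per library and the mean ± SD of 3 libraries. Mavs, Ddx58, Ifih1 and Trim25 separate by genotype without overlap, while Traf3 and Traf6 overlap between genotypes over both treatments.

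The receptor gene Ddx58 (RIG-I, chromosome 4, 40203773 to 40239828, minus strand, GRCm38) was about 2-fold higher with MAVS under either treatment. Under the inhibitor it had 99.0, 73.1 and 105.3 CPM in reconstituted tumours, against 37.9, 46.7 and 42.1 CPM in knockout tumours. In controls it had 88.8, 67.7 and 106.2 CPM in reconstituted tumours, against 50.3, 34.9 and 42.0 CPM in knockout tumours. The lowest reconstituted library, at 67.7 CPM, stood above the highest knockout library, at 50.3 CPM. The log2 difference was 1.13 ± 0.19 under the inhibitor (adjusted p = 0.0316) and 1.05 ± 0.19 in controls (adjusted p = 0.0683, not called). Averaged over treatments it was 1.09 ± 0.14 (adjusted p = 0.0027), a fold of 2.13.

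Ifih1 (MDA5, chromosome 2, 62595798 to 62646255, minus strand, GRCm38), which senses longer double-stranded RNA, separated in the same way. It had 21.1, 18.1 and 26.8 CPM in reconstituted tumours with inhibitor, against 7.90, 11.7 and 10.8 CPM in knockout tumours with inhibitor. Controls held 21.8, 15.6 and 28.2 CPM when reconstituted, against 10.4, 6.64 and 8.71 CPM when knocked out. Both reconstituted groups therefore averaged nearly the same level, 22.0 ± 4.43 CPM with inhibitor and 21.9 ± 6.31 CPM in controls (SD, n = 3 each). The log2 difference averaged over treatments was 1.23 ± 0.17 (adjusted p = 0.00595). Taken within one treatment it was not called, at 1.12 ± 0.25 under the inhibitor (adjusted p = 0.0689) and 1.35 ± 0.25 in controls (adjusted p = 0.0683).

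Dhx58 (LGP2, chromosome 11, 100694884 to 100704271, minus strand, GRCm38) had the largest difference of the 8 genes under the inhibitor. It had 24.2, 18.5 and 19.0 CPM in reconstituted tumours with inhibitor, against 4.38, 6.09 and 4.58 CPM in knockout tumours with inhibitor, a log2 difference of 2.03 ± 0.33 (adjusted p = 0.0281) and a fold of 4.10. In controls the values were 9.65, 7.79 and 18.8 CPM in reconstituted tumours, against 7.90, 4.77 and 4.59 CPM in knockout tumours. There the groups touched, since the lowest reconstituted library lay just under the highest knockout library, and the difference of 1.07 ± 0.32 was not called (adjusted p = 0.17). The average over treatments was 1.55 ± 0.23 (adjusted p = 0.00722). An antisense gene, Dhx58os, shares 141 bases, or 4.31%, of the Dhx58 exons in GENCODE M21, and no source used here says whether counting took strand into account.

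Trim25 (chromosome 11, 88999376 to 89020293, plus strand, GRCm38) showed a smaller, tight difference. It had 141.5, 109.1 and 116.9 CPM in reconstituted tumours with inhibitor, against 66.7, 71.2 and 73.1 CPM in knockout tumours with inhibitor, with a log2 difference of 0.80 ± 0.12 (adjusted p = 0.0214). In controls it had 101.1, 92.3 and 121.5 CPM in reconstituted tumours, against 81.4, 72.3 and 77.8 CPM in knockout tumours, a difference of 0.44 ± 0.12 that was not called (adjusted p = 0.158). The knockout libraries spanned 66.7 to 81.4 CPM, and all 6 reconstituted libraries lay higher. Averaged over treatments the difference was 0.62 ± 0.08 (adjusted p = 0.00411).

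Rnf135, the other ligase of RIG-I (chromosome 11, 80183851 to 80199757, plus strand, GRCm38), was not called in any of the 6 comparisons. It had 18.2, 15.2 and 13.3 CPM in reconstituted tumours with inhibitor, against 9.93, 10.7 and 9.96 CPM in knockout tumours with inhibitor, without overlap. In controls it had 9.11, 8.55 and 15.4 CPM in reconstituted tumours, against 9.50, 10.5 and 11.2 CPM in knockout tumours. The third reconstituted control library stood apart from the other two, which lay under all 3 knockout controls. The log2 difference was 0.61 ± 0.20 under the inhibitor (adjusted p = 0.151) and 0.08 ± 0.20 in controls (adjusted p = 0.861). The same reconstituted control library was also the highest of its group for Ddx58, Ifih1, Dhx58 and Trim25. It held the highest summed cytotoxic and NK cell markers of that group, 90.4 CPM against 57.1 and 65.7 CPM. Knockout control replicate 1 was likewise highest of its group for these genes and markers. Reconstituted inhibitor replicate 2 held the most markers of its group, 132.8 CPM against 101.4 and 109.5 CPM, but the least of each of these genes. Knockout inhibitor replicate 3 held the most markers and the most Trim25 of its group, while Ddx58, Ifih1 and Dhx58 were highest in replicate 2.

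Neither adaptor ligase was called. Traf6 (chromosome 2, 101678429 to 101701669, plus strand, GRCm38) had 32.0, 29.4 and 37.3 CPM in reconstituted tumours with inhibitor, against 33.2, 33.8 and 31.0 CPM in knockout tumours with inhibitor. Its control levels were 31.8, 34.5 and 38.0 CPM when reconstituted, against 36.3, 35.5 and 33.6 CPM when knocked out. The groups overlapped under both treatments, and the averaged log2 difference came to -0.0020 ± 0.0710, with a 95% interval of -0.16 to 0.15. Traf3 (chromosome 12, 111166370 to 111267153, plus strand, GRCm38) had 53.1, 55.9 and 73.3 CPM in reconstituted tumours with inhibitor, against 80.4, 74.2 and 60.6 CPM in knockout tumours with inhibitor. In controls it had 80.6, 70.4 and 73.8 CPM in reconstituted tumours, against 60.9, 64.3 and 70.2 CPM in knockout tumours, just without overlap. Its difference was thus negative under the inhibitor, at -0.24 ± 0.14 (adjusted p = 0.333), and positive in controls, at 0.20 ± 0.14 (adjusted p = 0.434), and neither was called.

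**Figure D2:**
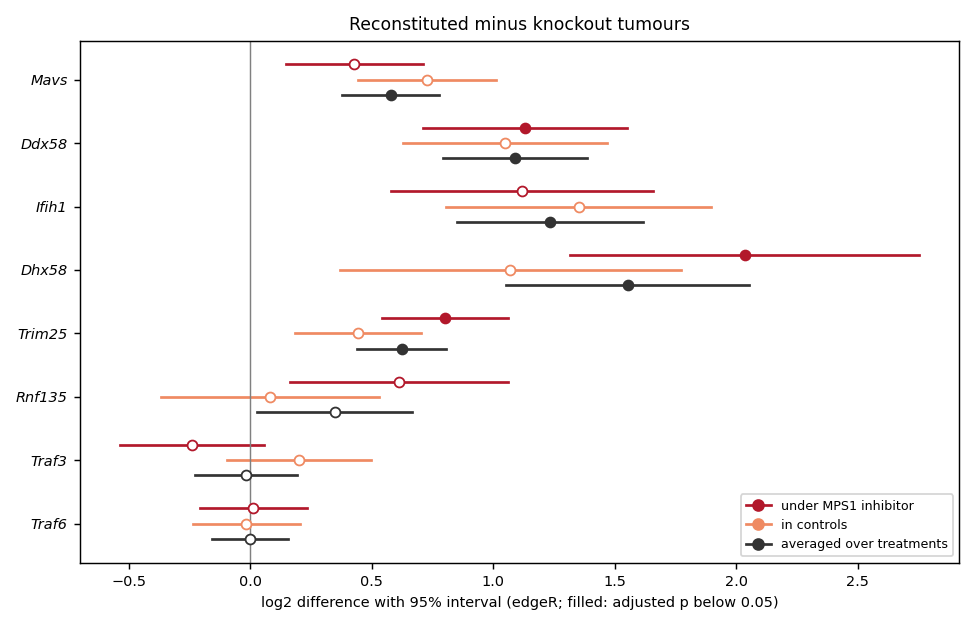
Log2 difference of reconstituted minus knockout tumours for each gene (horizontal axis, with the 95% interval of the edgeR fit, not adjusted for the number of genes), under the inhibitor, in controls and averaged. Filled points passed an adjusted p of 0.05: 3 of 8 genes under the inhibitor, 0 in controls and 5 averaged over treatments. Mavs, the gene altered between the genotypes, is among the 5.

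Within each treatment the calls were fewer. Under the inhibitor 3 of 8 genes were called higher in reconstituted tumours (Ddx58, Dhx58 and Trim25), against 0.52% of all genes, and 0 were called lower, against 0.129% of all genes. At an unadjusted p under 0.05 there were 6 of 8, against 19.7% of all genes, and 6 of 8 had every reconstituted library above every knockout library of that treatment, against 10.9% of all genes. In controls 0 of 8 were called by edgeR, against 0.117% of all genes called higher and 0.0224% called lower. At an unadjusted p under 0.05 there were 5 of 8 in controls, against 18.7% of all genes, and DESeq2 called those 5 (Mavs, Ddx58, Ifih1, Dhx58 and Trim25), while limma-voom called 0. Among all 17885 genes DESeq2 called 827 in controls and limma-voom 15. Without overlap in controls were 5 of 8 genes (Mavs, Ddx58, Ifih1, Trim25 and Traf3), against 15.6% of all genes. The 3 calls under the inhibitor became 0 without knockout inhibitor replicate 1, 2 or 3 or without reconstituted inhibitor replicate 1. They became 2 without knockout control replicate 3 or reconstituted control replicate 1, and 4 without reconstituted control replicate 3. Without reconstituted inhibitor replicate 3 there were 4 called higher (Ddx58, Ifih1, Dhx58 and Trim25) and 1 called lower, Traf3 at -0.40 (adjusted p = 0.0481). In that fit 2816 of 18321 genes were called under the inhibitor. In controls the count became 1 (Mavs) without reconstituted inhibitor replicate 1, where 54 of 18354 genes were called. It became 3 (Mavs, Ddx58 and Ifih1) without reconstituted inhibitor replicate 3, where 80 of 18321 genes were called. The averaged effect was steadier: Mavs, Ddx58, Ifih1, Dhx58 and Trim25 were each called in all 12 fits that left out a single library.

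Summed markers of cytotoxic and NK cells were higher in reconstituted than in knockout tumours. Their 9 markers, all read in every library, summed to 101.4 to 132.8 CPM in reconstituted tumours with inhibitor and 57.1 to 90.4 CPM in reconstituted controls, against 17.3 to 32.2 CPM in knockout tumours with inhibitor and 12.8 to 38.4 CPM in knockout controls. In reconstituted tumours this sum was higher with inhibitor than in controls, without overlap. Mean Ddx58 there was 92.5 CPM with inhibitor and 87.6 CPM in controls, and mean Ifih1 22.0 and 21.9 CPM. Dhx58 and Trim25 averaged higher with inhibitor, with overlapping libraries. Of the markers, 3 of 9 (Gzma, Gzmb and Prf1) were called higher averaged over treatments, against 1.09% of all genes, and 4 of 9 (also Cst7) under the inhibitor, against 0.52%. T cell markers (8 genes) summed to 23.6 to 33.2 CPM with inhibitor and 13.7 to 25.7 CPM in controls of reconstituted tumours, against 16.0 to 22.6 CPM and 13.6 to 20.8 CPM in the same treatments of knockout tumours. Summed leukocyte markers differed less, at 1062 to 1263 CPM and 919.8 to 1192 CPM in reconstituted tumours, against 870.4 to 1032 CPM and 955.4 to 1095 CPM in knockout tumours. The other marker lists, for macrophages, B cells, neutrophils, dendritic cells, fibroblasts, endothelium, skeletal muscle and red cells, held 0 called genes averaged over treatments, as did the T cell and leukocyte lists. Their median log2 differences still reached -0.64 for fibroblast, -1.55 for red cell and 1.11 for skeletal muscle markers. Reconstituted inhibitor replicate 1 held 2171 CPM of summed muscle markers, against 275 and 48.8 CPM in the other libraries of its group. It held 2943 CPM of fibroblast markers, against 8935 and 7057 CPM. The 3 calls under the inhibitor were lost without this library, and likewise without any single knockout inhibitor library. Of the 7 epithelial markers tested, Epcam and Cldn4 were called lower with MAVS, at -0.35 ± 0.07 (adjusted p = 0.031) and -0.57 ± 0.11 (adjusted p = 0.0285). The part of these cells in the sensor levels was not tested. In such bulk samples, fewer cells of a type and less RNA per cell cannot be told apart.

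The MPS1 inhibitor itself was compared with control treatment within each genotype. In reconstituted tumours 0 of 8 genes were called by edgeR, against 0% of all genes in either direction, and DESeq2 and limma-voom called 0 of 8 as well. Among all 17885 genes DESeq2 called 3668 in this comparison and limma-voom 0. At an unadjusted p under 0.05 there were 4 of 8 genes, against 32.6% of all genes. Dhx58 averaged 20.5 ± 3.18 CPM with inhibitor and 12.1 ± 5.90 CPM in controls (SD, n = 3 each), a log2 difference of 0.77 ± 0.32 (adjusted p = 0.122). Rnf135 averaged 15.6 ± 2.48 CPM with inhibitor and 11.0 ± 3.77 CPM in controls, a difference of 0.50 ± 0.20 (adjusted p = 0.12). The third reconstituted control library, the highest of its group for both genes, overlapped with the inhibitor libraries.

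Mavs and Traf3 pointed the other way in reconstituted tumours. Mavs averaged 55.6 ± 6.53 CPM with inhibitor and 71.0 ± 13.1 CPM in controls, a log2 difference of -0.35 ± 0.13 (adjusted p = 0.093), and Traf3 averaged 60.8 ± 10.9 CPM with inhibitor and 74.9 ± 5.23 CPM in controls, a difference of -0.30 ± 0.14 (adjusted p = 0.148). For both genes reconstituted inhibitor replicate 3 was the highest of its group, and without it both were called lower, at -0.45 for Mavs (adjusted p = 0.0288) and -0.46 for Traf3 (adjusted p = 0.0164). In that fit 5683 of 18321 genes tested were called, against 0 of 17885 with all libraries, so these calls do not set Mavs and Traf3 apart. Ddx58 and Ifih1 differed by 0.08 ± 0.19 and 0.01 ± 0.24, with 95% intervals of -0.34 to 0.49 and -0.52 to 0.54. Changes of any size within those intervals are compatible with the counts of these libraries.

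In knockout tumours 0 of 8 genes were called for the inhibitor by edgeR, DESeq2 or limma-voom, against 0% of all genes in edgeR, and 0 of 8 had an unadjusted p under 0.05, against 1.71% of all genes. Among all 17885 genes DESeq2 called 3 and limma-voom 1. The log2 differences ran from -0.20 for Dhx58 to 0.24 for Ifih1. The interaction, which asks whether the inhibitor effect differs between genotypes, was called for 0 of 8 genes by edgeR, DESeq2 and limma-voom, against 0% of all genes in edgeR. DESeq2 called it for 1365 of all 17885 genes and limma-voom for 0. At an unadjusted p under 0.05 there was 1 of 8, Traf3, against 24.7% of all genes. Dhx58 had an interaction of 0.96 ± 0.45 (95% interval -0.02 to 1.95, adjusted p = 0.21) and Trim25 of 0.36 ± 0.17 (95% interval -0.01 to 0.72, adjusted p = 0.21). Traf3 had -0.44 ± 0.19 (adjusted p = 0.186), which was -0.60 and called without reconstituted inhibitor replicate 3 (adjusted p = 0.0262). In that fit 4005 of 18321 genes were called for the interaction, so the Traf3 call does not set it apart. A larger MAVS effect on Dhx58 or Trim25 under the inhibitor than in controls was thus not shown by the test of the difference.

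**Figure D3:**
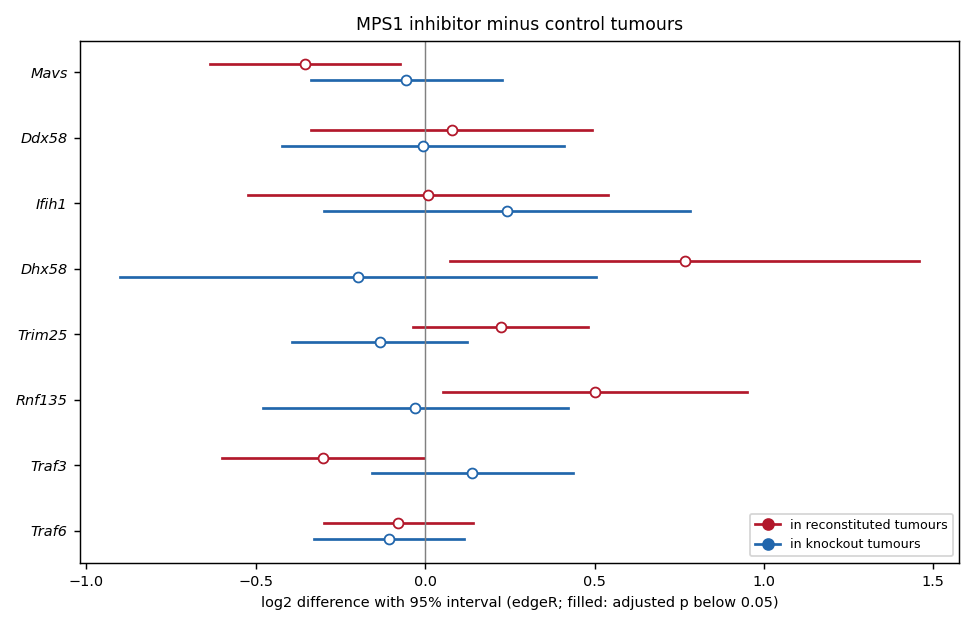
Log2 difference of inhibitor minus control tumours for each gene (horizontal axis, with the 95% interval of the edgeR fit, not adjusted for the number of genes) in reconstituted and in knockout tumours. All points are open because 0 of 8 genes passed in either genotype, and the largest difference is that of Dhx58 in reconstituted tumours, at 0.77.

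The order of the 4 groups by mean level differed between the genes. For Ddx58 and Ifih1 the 2 reconstituted groups came first with overlapping libraries, a gap without overlap followed, and the 2 knockout groups overlapped again. Trim25 and Mavs had the same gap between genotypes, with reconstituted tumours with inhibitor first for Trim25 and reconstituted controls first for Mavs. For Dhx58, Rnf135, Traf3 and Traf6 every pair of neighbours in the order overlapped. Per kilobase of exon sequence (GENCODE M21), in reconstituted tumours with inhibitor Trim25 stood at 21.3 ± 2.94 CPM per kb and Mavs at 16.6 ± 1.95, ahead of Ddx58 at 13.1 ± 2.42 and Dhx58 at 6.28 ± 0.972, with Ifih1 lowest at 2.69 ± 0.543 (SD, n = 3). In knockout controls Trim25 had 13.4 ± 0.795 CPM per kb, Mavs 12.8 ± 0.780, Ddx58 6.01 ± 1.10, Dhx58 1.76 ± 0.570 and Ifih1 1.05 ± 0.229.

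The proportion of the receptors to each other varied less than their levels. The ratio of Ifih1 to Ddx58 in CPM was 0.213, 0.247 and 0.255 in reconstituted tumours with inhibitor and 0.245, 0.231 and 0.266 in reconstituted controls, against 0.209, 0.251 and 0.256 in knockout tumours with inhibitor and 0.206, 0.191 and 0.207 in knockout controls. Over both treatments these ratios overlapped between genotypes, as they did under the inhibitor. In controls all 3 reconstituted ratios lay above all 3 knockout ratios, a description with no test. The ratio of Dhx58 to Ddx58 was 0.244, 0.253 and 0.180 in reconstituted tumours with inhibitor and 0.109, 0.115 and 0.177 in reconstituted controls. In knockout tumours it was 0.116, 0.130 and 0.109 with inhibitor and 0.157, 0.137 and 0.109 in controls. The 3 reconstituted inhibitor libraries had the 3 highest ratios of Dhx58 to Ddx58 of all 12, a description with no test.

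Within each of the 4 groups the library with the most Ddx58 also had the most Ifih1, as well as the most Traf6, and 1.55% of the other genes tested shared their highest library with Ddx58 in all 4 groups. Mavs and Traf3 likewise shared their highest library in all 4 groups, where 8.31% of genes did so with Mavs. Mavs and Ddx58 shared it in 1 group. Among the 6 reconstituted libraries the one with the least Mavs, 50.1 CPM, had 99.0 CPM of Ddx58, and the one with the second most Mavs, 68.9 CPM, had the least Ddx58, 67.7 CPM. Higher Mavs counts within reconstituted tumours thus did not go with higher Ddx58 counts in these 6 libraries.

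**Figure D4:**
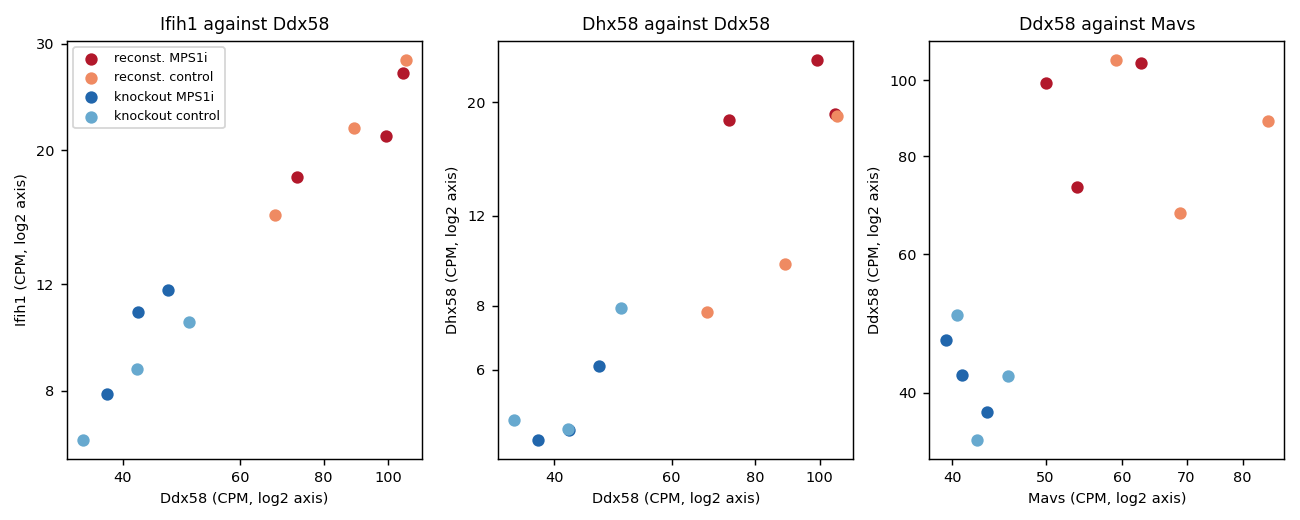
Levels in CPM (both axes on a log2 scale) of Ifih1 against Ddx58, Dhx58 against Ddx58 and Ddx58 against Mavs, with 1 point per library coloured by group. Ifih1 and Ddx58 lie along a line over all 12 libraries, while among the 6 reconstituted libraries Ddx58 does not rise with Mavs.

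For each of 5 genes the 3 genes most like it were taken by the root mean square difference of log2 CPM over the 12 libraries after centring, among the 11999 genes whose log2 CPM averaged 1 or more. Nearest to Ddx58 were Rnf213, a large ubiquitin ligase (0.14), the interferon regulatory factor gene Irf9 (0.14), and Ifih1 (0.15). Nearest to Ifih1 were Ddx58 (0.15), the AIM2-like gene Mndal (0.19) and Rnf213 (0.20). Nearest to Dhx58 were the MHC class I gene H2-T24 (0.13), the apoptosis-linked gene Xaf1 (0.16) and Phf11d (0.19). Since these genes were picked for their likeness over the same 12 libraries, their own difference between genotypes is fixed by the choice and is not tested here. Nearest to Trim25 were Whamm, an actin nucleation factor (0.10), the histone chaperone gene Daxx (0.11) and Mitd1, which acts in the last step of cell division (0.11). Among the genes nearest to Mavs were the zinc finger gene Zfp235 (0.16) and the helicase gene Ascc3 (0.17), neither of them a sensor or adaptor of this pathway.

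Promoter sequences are shown for Ddx58, Ifih1 and Trim25, which were called together, and for Traf6, which was not. They were taken from RefSeq on GRCm38.p6 as 250 bases before and 50 bases from the annotated start. Of the 8 genes 7 had an entry, while Dhx58, also called, had none and was not searched. Capitals mark matches of AANNGAAA, the core bound by interferon regulatory factors, on either strand. It lies inside each match of the longer interferon-stimulated response element searched (GAAA, any 2 bases, GAAA), so both motifs overlap.
Ddx58 (chr4:40239776-40240075, minus strand): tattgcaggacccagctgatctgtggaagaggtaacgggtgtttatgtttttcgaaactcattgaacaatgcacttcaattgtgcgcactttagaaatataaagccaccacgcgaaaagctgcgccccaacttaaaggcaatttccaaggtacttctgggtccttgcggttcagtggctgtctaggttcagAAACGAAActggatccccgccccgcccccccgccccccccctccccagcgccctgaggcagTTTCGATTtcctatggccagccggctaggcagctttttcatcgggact
Ifih1 (chr2:62646206-62646505, minus strand): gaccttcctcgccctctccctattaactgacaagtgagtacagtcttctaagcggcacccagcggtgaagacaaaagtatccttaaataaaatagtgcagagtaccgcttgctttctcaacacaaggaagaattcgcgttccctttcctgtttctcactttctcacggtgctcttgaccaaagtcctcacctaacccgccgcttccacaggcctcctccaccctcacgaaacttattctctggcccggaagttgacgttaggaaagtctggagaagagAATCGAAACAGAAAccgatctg
Trim25 (chr11:88999153-88999452, plus strand): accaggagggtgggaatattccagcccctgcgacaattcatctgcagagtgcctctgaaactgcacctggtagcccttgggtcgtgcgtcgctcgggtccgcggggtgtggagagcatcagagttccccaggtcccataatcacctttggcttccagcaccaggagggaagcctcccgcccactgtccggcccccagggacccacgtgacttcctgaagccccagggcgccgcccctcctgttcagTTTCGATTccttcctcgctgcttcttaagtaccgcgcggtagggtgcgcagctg
Traf6 (chr2:101678170-101678469, plus strand): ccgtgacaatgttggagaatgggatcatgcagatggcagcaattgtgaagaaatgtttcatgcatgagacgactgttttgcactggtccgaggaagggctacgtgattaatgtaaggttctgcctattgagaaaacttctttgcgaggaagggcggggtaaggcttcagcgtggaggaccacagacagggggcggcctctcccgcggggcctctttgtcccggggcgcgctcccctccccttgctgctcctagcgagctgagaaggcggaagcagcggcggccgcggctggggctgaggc

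Ddx58 and Ifih1 each held 1 match of the longer element, at bases 3 to 12 and 33 to 42 counted from the start as base 1, and each held 2 matches of AANNGAAA. Trim25 held 1 match of AANNGAAA, from base -4 to base 4 with no base 0, and none of the longer motif. Mavs, Rnf135, Traf3 and Traf6 held no match of either motif. Of 32851 promoter entries 3.44% held the longer element and 23.9% held AANNGAAA on either strand. Of the 16492 entries of genes tested 3.18% and 19.2% did so. Among the 200 entries of genes called higher with MAVS averaged over treatments these shares were 23.5% and 53%, given as a description with no test. The matches are letters in these windows and do not show that a factor binds there.

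Other genes of the pathway were read from 4 lists by role. Averaged over treatments, 3 of 14 cofactors were called higher with MAVS and 0 lower, against 1.09% and 0.47% of all genes, and the list median was -0.0011 against 3e-04 over all genes. The 3 were Trim14, a mitochondrial partner of MAVS, Ddx60, a helicase related to antiviral sensing, and Zc3hav1, the zinc finger antiviral protein ZAP. Trim14 had 28.1, 19.4 and 29.2 CPM in reconstituted tumours with inhibitor and 21.2, 17.6 and 24.5 CPM in reconstituted controls, against 13.2, 13.6 and 13.4 CPM in knockout tumours with inhibitor and 14.6, 11.9 and 14.1 CPM in knockout controls. No knockout library reached the lowest reconstituted one, and the log2 difference was 0.79 ± 0.12 (adjusted p = 0.00733). Ddx60 had 1.42 ± 0.24 (adjusted p = 0.0166) and Zc3hav1 0.37 ± 0.07 (adjusted p = 0.0285). Under the inhibitor Trim14 was the 1 of 14 cofactors called, at 0.93 ± 0.17 (adjusted p = 0.0329), against 0.52% of all genes called higher, and in controls 0 of 14 were called, against 0.117%.

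Genes that restrain the receptors or MAVS, such as the ubiquitin ligase gene Rnf125, the NLR gene Nlrx1 and the MAVS-degrading partners Pcbp2 and Itch, were called in 0 of 14 cases in each of the 6 comparisons. With 1.09% of all genes or fewer called higher in any of them, a count of 0 among 14 does not set these genes apart. Their median averaged over treatments was 0.04, with a range of -0.05 for Rnf125 to 0.18 for the deubiquitinase gene Usp3. In the relay from MAVS to interferon genes 1 of 17 was called higher averaged over treatments and 0 lower, with a list median of 0.11, where 1.09% of all genes were called higher and 0.47% lower. That gene was Irf7, the interferon-inducible factor that amplifies interferon production. It had 172.5, 145.5 and 105.8 CPM in reconstituted tumours with inhibitor and 66.8, 49.2 and 109.0 CPM in reconstituted controls. Knockout tumours held 14.8, 31.3 and 18.9 CPM with inhibitor and 34.5, 10.7 and 16.7 CPM in controls, below all reconstituted libraries. Its log2 difference was 2.28 ± 0.32 (adjusted p = 0.00523), and 2.71 ± 0.45 under the inhibitor (adjusted p = 0.0316). In controls it was 1.86 ± 0.44 and not called (adjusted p = 0.136). Irf7 was thus the 1 of 17 relay genes called higher under the inhibitor, against 0.52% of all genes. In controls 0 of 17 were called higher, against 0.117%.

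The other 16 relay genes did not pass. The kinase gene Tbk1 had a log2 difference of 0.21 ± 0.07 averaged over treatments (adjusted p = 0.201), Ikbke, the inducible relative of Tbk1, had 0.37 ± 0.08 (adjusted p = 0.0503) with all 6 reconstituted libraries above all 6 knockout libraries, and Irf3, the factor that TBK1 phosphorylates, had 0.05 ± 0.09 (adjusted p = 0.856). The 5 interferon genes looked for were at the edge of detection, with 0 to 3 counts in any library for Ifnb1, Ifna2, Ifna4, Ifnl2 and Ifnl3. None could be tested. A count of 0 here allows a level of up to 0.0422 to 0.0593 CPM by library, counting error only. A short or local burst of interferon transcripts below that level could have been missed.

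**Figure D5:**
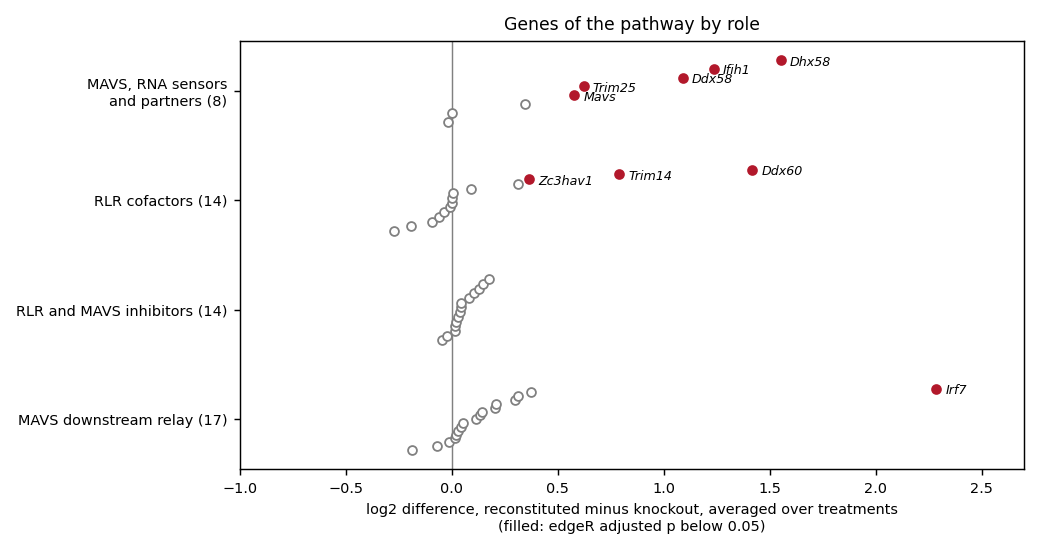
Log2 difference of reconstituted minus knockout tumours averaged over treatments (horizontal axis) for the 8 genes and for tested genes of 3 lists by role, with 1 point per gene and filled points where the adjusted p was below 0.05. Filled are 5 of 8 in the first row (with Mavs, the gene altered between the genotypes), 3 of 14 cofactors, 0 of 14 inhibitors and 1 of 17 relay genes.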

How the data were processed

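RNA was extracted with a column kit and a DNase step and made into stranded mRNA libraries, per the labels' protocols. Per the submitters' processing notes, Trimmomatic, HISAT2 and StringTie and the build GRCm38 (mm10) were used, without versions or roles. The authors deposited whole-number counts per gene for 12 libraries, with no normalization visible in the values. No source used here states the handling of strand or shared reads.

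The 12 libraries were fitted jointly, with 4 group means and no further term, in edgeR 4.0.16 (R 4.3.3), after filterByExpr and TMM, with quasi-likelihood F-tests and Benjamini-Hochberg adjustment over 17885 genes for each of 6 comparisons. Log2 CPM used a prior count of 2. Alternatives were DESeq2 1.42.0, limma-voom (limma 3.58.1), DESeq2 size factors, no filter, the compared libraries alone, a replicate block and each library left out. Lengths, positions and overlaps came from GENCODE M21.

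The 8 genes, the lists (50 pathway genes, 45 of them tested, and 82 markers of 12 cell types) and the rule for named genes were chosen with earlier results of these data known. The rule named the 8 genes throughout, called list genes, Ifnb1, Tbk1, Irf3 and Irf7, and the 3 genes nearest in pattern to each of 5 members, of which 1 is not reported here. Ikbke, Rnf125, Nlrx1, Pcbp2, Itch and Usp3 were named after their values were seen.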

Additional observations from a re-analysis of the deposited data

How the results depend on the processing

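The 5 calls averaged over treatments held under every alternative run, with adjusted p values up to 0.0379 without a single library. Under the inhibitor the 3 calls, all higher, became 0 to 5 with single libraries left out (at most 4 higher, the 5 including Traf3 called lower), 5 with DESeq2, all higher, and 1 (Trim25) without reconstituted inhibitor replicate 1 and reconstituted control replicate 2 (the end libraries), an alternative chosen after seeing the data. In controls the count of 0 was 0 to 3 with single libraries left out and 5 with DESeq2. The inhibitor effect in reconstituted tumours gave 0 to 2 and the interaction 0 to 1 with single libraries left out.

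Signs changed only for differences that were not called. For Ddx58 the inhibitor effect in knockout tumours was 0.0042 with no filter, 0.0072 with limma-voom and 0.0192 with the replicate block, and -0.13 to 0.14 with single libraries left out. Without both end libraries the Ddx58 interaction was -0.12, the inhibitor effect in reconstituted tumours -0.13 for Ddx58 and -0.16 for Ifih1, and the averaged MAVS effect 0.0468 for Traf3 and 0.0112 for Traf6. Ranges with single libraries left out that crossed 0 were, for the interaction, -0.0729 to 0.24 (Ddx58) and -0.0771 to 0.10 (Traf6), and for the inhibitor in reconstituted tumours -0.0748 to 0.24 (Ddx58) and -0.18 to 0.23 (Ifih1). In knockout tumours they were -0.36 to 0.10 (Dhx58) and -0.0892 to 0.0343 (Rnf135). For the MAVS effect they were -0.23 to 0.23 (Rnf135) and -0.0818 to 0.0444 (Traf6) in controls, -0.0934 to 0.086 (Traf6) under the inhibitor, and -0.10 to 0.0253 (Traf3) and -0.0549 to 0.0351 (Traf6) averaged. The cause was not tested.

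Same-numbered libraries correlated in their deviations at -0.11 to 0.31 and 6 of 12 matched best with their own number outside their group. The labels do not say what the number marks, and 9 of 18 pairs exceeded 0.1, so it was not used as a pairing. With the replicate block 2 of 8 genes (Ddx58 and Trim25) were called under the inhibitor and 43 genes in all. Over all genes, the 116 calls under the inhibitor became 1243 with DESeq2, 64 with the 6 libraries compared and 23 without both end libraries. The 25 calls in controls became 827 with DESeq2, 15 with limma-voom, 15 with the block and 10 with 6 libraries. The 279 averaged calls became 1020 with DESeq2 and 170 without both end libraries. DESeq2 called 3668 genes for the inhibitor in reconstituted tumours, 3 in knockout tumours and 1365 for the interaction, where edgeR called 0; limma-voom called 1 in knockout tumours, and edgeR on the 6 libraries compared called 1 in reconstituted tumours. With single libraries left out the counts ran 0 to 2816 under the inhibitor, 0 to 80 in controls, 115 to 331 averaged, 0 to 5683 for the inhibitor in reconstituted tumours and 0 to 4005 for the interaction, the highest of all but the averaged one without reconstituted inhibitor replicate 3.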
